A study of Mus musculus with 12 samples.

Results

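Genome-wide association studies of late-onset Alzheimer disease in people have linked many genes to risk besides Trem2 and Apoe. The mouse counterparts of 10 of them were followed here in amyloid-bearing cortex with and without the small GTPase Hras. They were Clu, Bin1, Picalm, Abca7, Sorl1, Cd2ap, Inpp5d, Plcg2, Cd33 and Ms4a6d, taken by gene symbol from a table of 54532 genes whose Ensembl identifiers were matched to GENCODE M21. All 10 were found, and all 10 passed the filter on low counts that left 17307 genes for testing. The rule for membership is a list of gene names, and it was drawn up with earlier results of these libraries known.

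Poly(A) RNA of the frontal cortex came from 12 mice aged 9 months. The groups were 3 APP/PS1/Hras-/- males, 3 APP/PS1/Hras-/- females, 3 APP/PS1 males and 3 APP/PS1 females, each mouse giving 1 library. All of them carried the APP/PS1 transgenes, which encode amyloid precursor protein and presenilin 1 and produce amyloid plaques, so the design holds no mice without amyloid transgenes. The labels name neither the transgenic line nor its promoter, and they do not describe the Hras allele.

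Total counts per library ran from 13984692 to 20174131. Hras, the targeted gene, averaged 21.3 ± 1.68 CPM, the count scaled to a common library size with TMM factors, in APP/PS1/Hras-/- mice and 82.8 ± 9.84 CPM in APP/PS1 mice (SD, n = 6 each), which fits the genotype labels. Its log2 difference was −1.95 (SE 0.0772, edgeR quasi-likelihood F test, Benjamini-Hochberg adjusted p = 3.04e-09). No marker on the 13 lists of cell types and neighbouring tissues stayed under 0.1 CPM in every library. This held for neurons, astrocytes, oligodendrocytes and microglia, and also for blood and choroid plexus, so it does not show how much of each the libraries held. APP/PS1/Hras-/- male 1 and APP/PS1 female 2 stood apart from the others in earlier results of these data, and without this pair none of the estimates for the 10 genes below moved by more than 1 SE. Values without it are given for some of them. The sum of 10 choroid plexus markers was 3150 CPM in APP/PS1 female 2 and between 14.0 and 607 CPM in the other libraries. In RNA of a whole tissue, fewer cells of a type and less RNA per cell cannot be told apart.

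The 10 genes work in a few connected processes. Clusterin (Clu) is a secreted chaperone and lipoprotein component made largely by astrocytes, and Abca7 is a membrane lipid transporter. Sorl1, Picalm, Bin1 and Cd2ap act in endocytosis and membrane traffic, which decide where amyloid precursor protein meets the enzymes that cut it. Inpp5d, Plcg2, Cd33 and Ms4a6d are expressed in brain mainly by microglia, the resident phagocytes, where Plcg2 carries signals from receptors such as Trem2 and Inpp5d damps them.

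The promoters of 4 genes are shown because they make up the 5 pairs with the strongest Pearson correlations across the libraries, described further on. Picalm and Inpp5d did not pass as a pair, and by Spearman's rho no pair with Picalm passed. The sequences are from RefSeq on GRCm38.p6 and run 5′ to 3′ on the strand of the gene. They reach from 250 bases before to 50 bases after the start given there. The Cd33 window lies inside the GENCODE M21 span of that gene (43524216 to 43544428), away from its 5′ end, so its distances are not from the GENCODE start. Capitals mark GAGGAA, the core bound by PU.1 (Spi1), a transcription factor of the myeloid lineage, or its complement TTCCTC. The windows are chr1:87620062-87620361 for Inpp5d (plus strand), chr7:43533122-43533421 for Cd33 (minus strand), chr8:117498025-117498324 for Plcg2 (plus strand) and chr7:90129963-90130262 for Picalm (plus strand).
Inpp5d: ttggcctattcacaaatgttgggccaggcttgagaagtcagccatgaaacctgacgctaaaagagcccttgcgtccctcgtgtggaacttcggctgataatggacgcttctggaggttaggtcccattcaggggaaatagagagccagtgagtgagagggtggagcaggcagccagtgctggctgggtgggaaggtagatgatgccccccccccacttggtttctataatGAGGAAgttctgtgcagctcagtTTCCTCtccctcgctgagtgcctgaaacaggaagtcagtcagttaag
Cd33: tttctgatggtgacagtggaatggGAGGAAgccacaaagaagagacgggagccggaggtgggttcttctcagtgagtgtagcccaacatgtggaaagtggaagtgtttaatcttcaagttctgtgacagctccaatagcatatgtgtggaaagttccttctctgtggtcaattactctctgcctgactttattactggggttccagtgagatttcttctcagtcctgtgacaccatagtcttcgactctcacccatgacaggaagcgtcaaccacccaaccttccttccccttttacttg
Plcg2: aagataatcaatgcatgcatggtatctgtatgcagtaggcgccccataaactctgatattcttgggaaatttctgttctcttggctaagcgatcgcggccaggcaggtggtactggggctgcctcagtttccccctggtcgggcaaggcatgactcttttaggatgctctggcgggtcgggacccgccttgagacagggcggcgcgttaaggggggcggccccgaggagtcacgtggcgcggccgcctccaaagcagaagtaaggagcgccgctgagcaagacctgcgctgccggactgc
Picalm: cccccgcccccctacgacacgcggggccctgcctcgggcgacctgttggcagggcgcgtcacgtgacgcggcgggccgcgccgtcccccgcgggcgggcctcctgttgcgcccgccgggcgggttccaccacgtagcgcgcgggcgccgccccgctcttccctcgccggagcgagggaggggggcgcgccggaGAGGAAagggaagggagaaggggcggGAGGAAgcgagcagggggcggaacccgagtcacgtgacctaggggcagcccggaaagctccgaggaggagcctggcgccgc

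The core stood 20 bases before the start and, on the other strand, 3 bases after it in Inpp5d, 226 bases before it in Cd33, and 57 and 31 bases before it in Picalm. The Plcg2 window did not hold these letters. Windows were at hand for 7 of the 10 genes, and 3 of the 7 held the core on either strand, against 28.3% of 27025 mouse promoters of the same length. The longer form GAGGAAGT, which contains the core, occurred in 1 of the 7 (Inpp5d) and in 3.28% of all promoters. The motifs TGANTCA of AP-1 and TGACGTCA of CREB, both factors downstream of Ras signalling, were in 0 of the 7 and in 7.93% and 1.88% of all promoters. The Picalm window was rich in G and C (78.0%, with 44 CpG), the Plcg2 window intermediate (60.0%, 21 CpG), and the Inpp5d (53.7%, 6 CpG) and Cd33 (47.7%, 4 CpG) windows near the promoter medians of 52.7% and 7 CpG. A match of letters describes the window and does not show binding.

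Levels spanned more than 2 orders of magnitude when scaled to exon length. Clu was the most abundant, with 263 ± 22.3 CPM per kilobase of exon over the 12 libraries (SD). Bin1 followed at 65.1 ± 6.13, Sorl1 at 38.5 ± 5.20, Picalm at 9.53 ± 0.514 and Abca7 at 7.47 ± 0.592 CPM per kilobase. Below them on the same scale stood Inpp5d at 3.43 ± 0.640, Cd33 at 2.42 ± 0.466, Cd2ap at 2.38 ± 0.254, Plcg2 at 1.84 ± 0.338 and Ms4a6d at 0.776 ± 0.369. Clu, Bin1, Sorl1 and Picalm were separated from each other by ranges that did not overlap, and so were Abca7 and Inpp5d. The ranges of Picalm and Abca7 overlapped, as did those of each neighbouring pair from Inpp5d down to Ms4a6d. This order depends on the scaling by the merged exon length of all annotated transcripts. In mean CPM without it Sorl1 (435.9) stood above Bin1 (267.9), and Cd2ap (37.7) above Inpp5d (26.1) and Cd33 (18.8).

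The genes differed in how steady they were. Picalm had the lowest coefficient of variation of CPM over the 12 libraries, 5.40%, followed by Abca7 at 7.93%, Clu at 8.49% and Bin1 at 9.42%. Inpp5d, Plcg2 and Cd33 varied by 18.7%, 18.4% and 19.3%. Ms4a6d varied most, by 47.6%, and had between 8 and 58 counts per library, so its values carry a large counting error.

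**Figure D1:**
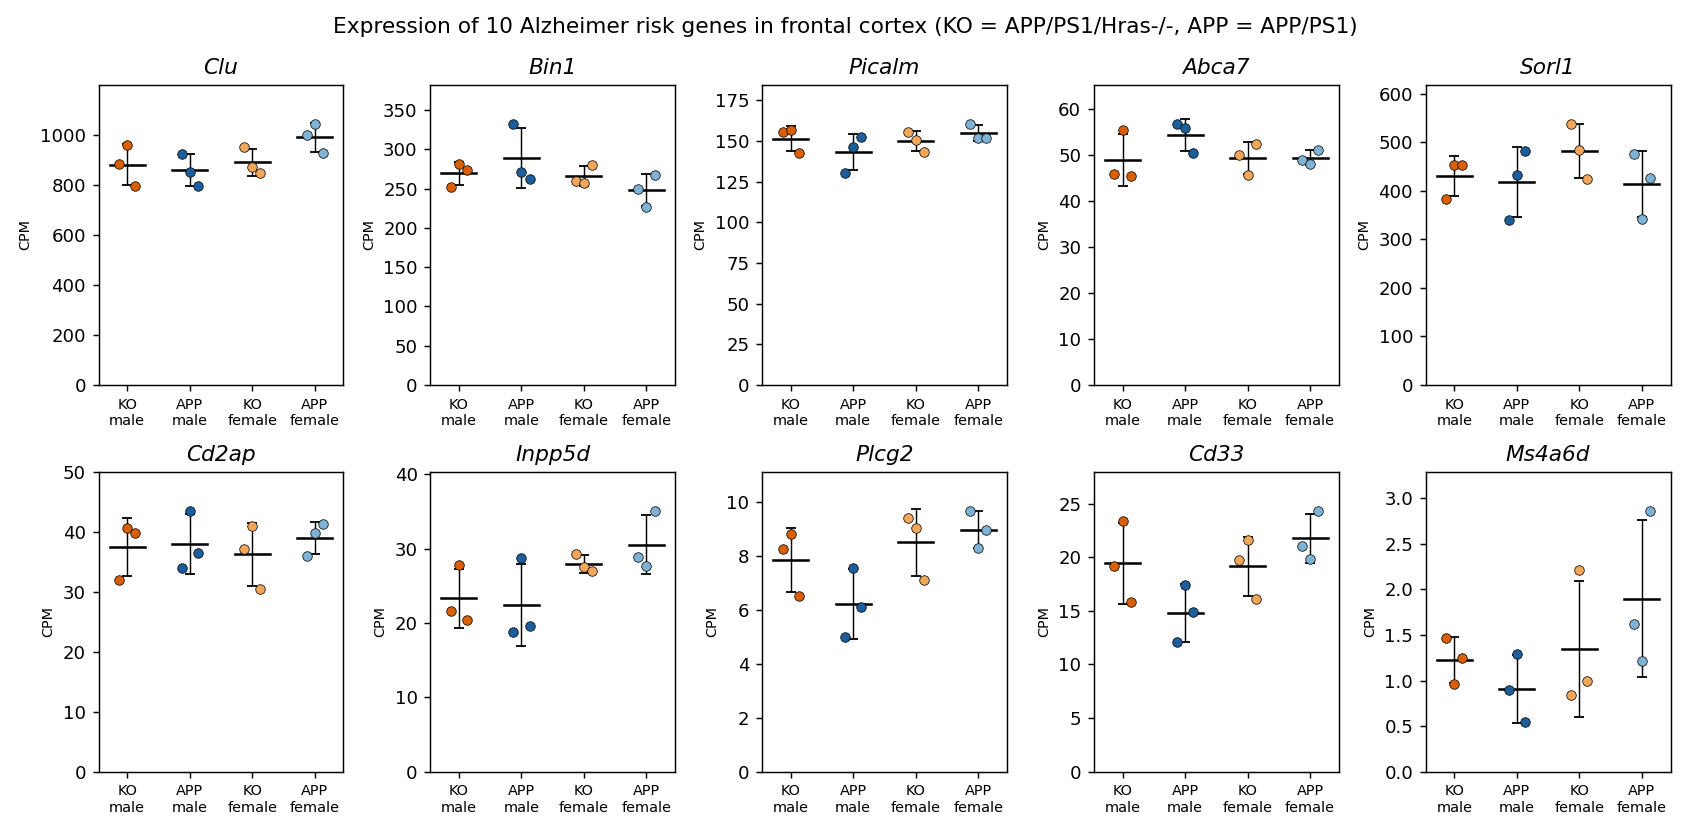
CPM of the 10 genes in each of the 12 libraries (y axes, CPM from 0), with APP/PS1/Hras-/- (KO) left of APP/PS1 (APP) within males and within females; points are libraries, horizontal lines group means and bars SD (n = 3). Most groups overlap, and in Clu, Plcg2 and Cd33 the 3 APP/PS1 females lie above the 3 APP/PS1 males.

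Loss of Hras was compared first across both sexes, to ask whether these risk genes follow the genotype. None of the 10 genes passed the test. Their log2 differences (APP/PS1/Hras-/- minus APP/PS1, with sex in the model) lay between −0.09 and 0.13, 5 above 0 and 5 below, where 51.1% of all genes lay above 0. In the same comparison 3 of 17307 genes, 0.0173%, passed an adjusted p of 0.05 in edgeR. Of the 10, 0 had an unadjusted p under 0.05, against 1.68% of all genes, and DESeq2 and limma-voom also called 0 of the 10. Their median log2 difference was −0.02, beside 0.0024 over all genes tested. For none of the 10 did every APP/PS1/Hras-/- library lie above or below every APP/PS1 library, which 0.0636% and 0.052% of all genes did. With the labels' RNA integrity number (RIN) as a covariate only Bin1 (0.08) and Sorl1 (0.08) lay above 0, while Picalm, Plcg2 and Cd33 turned to −0.04, −0.02 and −0.08 and Ms4a6d stood at −0.23 (SE 0.361).

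**Figure D2:**
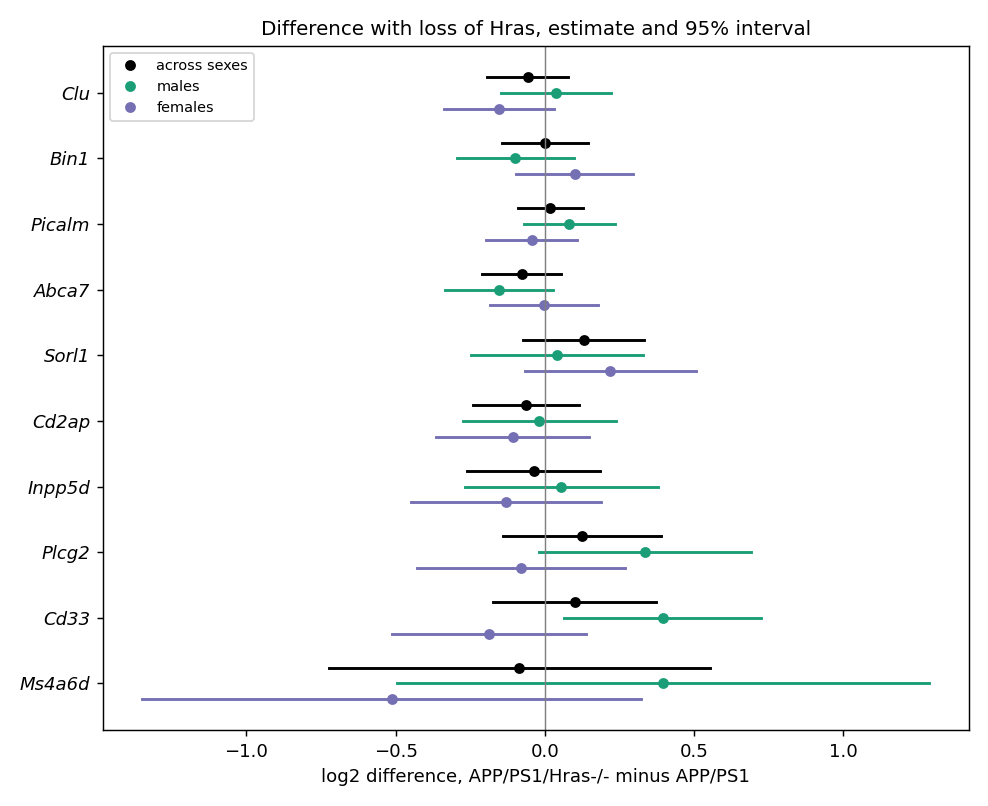
Log2 difference between APP/PS1/Hras-/- and APP/PS1 mice (x axis) for each gene (rows), across sexes, in males and in females; points are edgeR estimates and lines 95% intervals. Across sexes every interval includes 0, and only the male interval of Cd33 (0.06 to 0.72) does not.

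Clu (ENSMUSG00000022037, GRCm38 chromosome 14, 65968483 to 65981547, plus strand) is the extracellular chaperone clusterin, also called apolipoprotein J. It stood at 885, 960 and 797 CPM in APP/PS1/Hras-/- males, against 925, 853 and 797 CPM in APP/PS1 males. In females it was 951, 870 and 849 CPM in APP/PS1/Hras-/- mice and 1000.0, 1043 and 927 CPM in APP/PS1 mice. The genotypes overlapped in both sexes, with the highest library an APP/PS1 female. The log2 difference across sexes was −0.06 (95% interval −0.19 to 0.08), and Clu averaged 885 ± 62.0 CPM in APP/PS1/Hras-/- and 924.1 ± 90.7 CPM in APP/PS1 mice (SD, n = 6 each, two-sided exact permutation p = 0.4).

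Abca7 (ENSMUSG00000035722, chromosome 10, 79996494 to 80015572, plus strand) belongs to the ABC transporters that move lipid across membranes. Values were 45.8, 55.3 and 45.3 CPM in APP/PS1/Hras-/- males, against 56.7, 55.8 and 50.4 CPM in APP/PS1 males. APP/PS1/Hras-/- females had 49.8, 45.6 and 52.4 CPM, and APP/PS1 females 48.9, 48.0 and 51.1 CPM. In males 1 APP/PS1/Hras-/- library reached the APP/PS1 range, and in females the groups overlapped throughout. Across sexes the log2 difference was −0.08 (interval −0.21 to 0.05).

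Sorl1 (ENSMUSG00000049313, chromosome 9, 41964720 to 42124297, minus strand) encodes a sorting receptor that returns amyloid precursor protein from endosomes. Among APP/PS1/Hras-/- mice it stood at 383, 454 and 453 CPM in males and 537, 484 and 425 CPM in females. Among APP/PS1 mice it stood at 339, 433 and 481 CPM in males and 475, 341 and 425 CPM in females. The highest value was in an APP/PS1/Hras-/- female and the lowest in an APP/PS1 male, with overlap of the genotypes in each sex. Its estimate of 0.13 (SE 0.103, interval −0.07 to 0.33) was the largest of the 10 in size across sexes, and the means were 456 ± 52.5 CPM in APP/PS1/Hras-/- and 416 ± 62.5 CPM in APP/PS1 mice (SD, n = 6 each, exact permutation p = 0.247).

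Picalm (ENSMUSG00000039361, chromosome 7, 90130213 to 90213465, plus strand), a clathrin adaptor, was the steadiest gene. APP/PS1/Hras-/- mice held it between 142 and 156.5 CPM (median 153) and APP/PS1 mice between 131 and 160 CPM (median 152). The range of the APP/PS1/Hras-/- mice lay inside that of the APP/PS1 mice. The log2 difference was 0.02, with an interval of −0.09 to 0.13.

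Bin1 (ENSMUSG00000024381, chromosome 18, 32377230 to 32435737, plus strand), a BAR-domain protein that shapes curved membranes, averaged 268 ± 12.5 CPM in APP/PS1/Hras-/- and 268 ± 35.3 CPM in APP/PS1 mice (SD, n = 6 each). It ran from 253 to 281 CPM (median 267) in APP/PS1/Hras-/- mice and from 227 to 332 CPM (median 265) in APP/PS1 mice. The highest library, at 332 CPM, was APP/PS1 male 1. The log2 difference was 0.0001, with an interval of −0.14 to 0.14. On the opposite strand A830052D11Rik shares 6.22% of the Bin1 exon bases, and it had 242 counts in all, against 55544 for Bin1.

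Cd2ap (ENSMUSG00000061665, chromosome 17, 42792951 to 42876665, minus strand), an adaptor that links membrane receptors to actin, ran from 30.6 to 41.1 CPM (median 38.5) in APP/PS1/Hras-/- mice and from 34.0 to 43.6 CPM (median 38.2) in APP/PS1 mice. The genotypes overlapped, with a log2 difference of −0.06 (interval −0.24 to 0.11). Of its stretches of 75 bases, 1.97% also occurred in 2 other annotated genes, Gm6475 and Gm49797.

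Inpp5d (ENSMUSG00000026288, chromosome 1, 87620312 to 87720507, plus strand) encodes SHIP1, a phosphatase that removes the membrane lipid made by PI3 kinase. It stood at 21.6, 27.8 and 20.5 CPM in APP/PS1/Hras-/- males, against 18.8, 28.8 and 19.7 CPM in APP/PS1 males. APP/PS1/Hras-/- females had 29.3, 27.6 and 27.0 CPM, and APP/PS1 females 28.8, 27.7 and 35.1 CPM. The genotypes overlapped in each sex, and in both genotypes 2 males lay below every female. The log2 difference across sexes was −0.04 (interval −0.26 to 0.19).

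Plcg2 (ENSMUSG00000034330, chromosome 8, 117498291 to 117635142, plus strand) is the phospholipase C of immune receptor signalling. It measured 8.26, 8.81 and 6.53 CPM in APP/PS1/Hras-/- males, against 4.99, 7.57 and 6.12 CPM in APP/PS1 males. Values in females were 9.41, 9.04 and 7.10 CPM in APP/PS1/Hras-/- mice and 9.68, 8.29 and 8.98 CPM in APP/PS1 mice. In males 2 of 3 APP/PS1/Hras-/- libraries exceeded every APP/PS1 library, while the females overlapped. The log2 difference across sexes was 0.12 (interval −0.14 to 0.39).

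Cd33 (ENSMUSG00000004609, chromosome 7, 43524216 to 43544428, minus strand) encodes a Siglec, a receptor for sialic acid, which in humans inhibits microglial uptake. It stood at 19.2, 23.3 and 15.8 CPM in APP/PS1/Hras-/- males, against 12.1, 17.4 and 14.9 CPM in APP/PS1 males. In females it stood at 19.7, 21.6 and 16.1 CPM in APP/PS1/Hras-/- mice, against 21.1, 19.9 and 24.3 CPM in APP/PS1 mice. The APP/PS1/Hras-/- libraries lay mostly above APP/PS1 in males and mostly below it in females, with overlap in each sex. Across sexes the log2 difference was 0.10 (interval −0.17 to 0.37).

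Ms4a6d (ENSMUSG00000024679, chromosome 19, 11586604 to 11604849, minus strand) encodes a membrane protein of the MS4A family, whose human locus carries the association. It ran from 0.844 to 2.21 CPM (median 1.12) in APP/PS1/Hras-/- mice and from 0.550 to 2.86 CPM (median 1.25) in APP/PS1 mice. Its log2 difference of −0.09 had a wide interval, −0.72 to 0.55, and it became −0.31 (SE 0.340) without the pair of libraries that stood apart. Its paralog Ms4a6b shared 0.408% of its stretches of 75 bases, and how the counting treated such reads is not given in the sources used here.

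Within males, Cd33 had the smallest p of the 10 genes. It averaged 19.5 ± 3.77 CPM in APP/PS1/Hras-/- males and 14.8 ± 2.67 CPM in APP/PS1 males (SD, n = 3 each), a log2 difference of 0.39 (SE 0.168, edgeR adjusted p = 0.945). Plcg2 followed with 0.34 (SE 0.181), while Ms4a6d had 0.40 (SE 0.455; 0.25 without the pair of libraries that stood apart) and Abca7 −0.15 (SE 0.0927). Estimates of 7 of the 10 lay above 0, against 51.5% of all genes, and none of the 10 separated the male groups fully, which 5.08% of all genes did upward and 5.22% downward. None of the 10 passed in edgeR, DESeq2 or limma-voom, while edgeR called 2 genes of the whole table, 0.0116%. Only Cd33 among the 10 had an unadjusted p under 0.05, beside 3.91% of all genes. Leaving out 1 library at a time moved the Cd33 estimate between 0.24 (without APP/PS1/Hras-/- male 2) and 0.53 (without APP/PS1 male 2).

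RIN, a measure of RNA quality, moved with genotype in males. It was 8.67 ± 0.058 in APP/PS1/Hras-/- males and 8.10 ± 0.265 in APP/PS1 males (SD, n = 3 each), without overlap. With RIN as a covariate the male estimates were −0.06 (SE 0.308) for Cd33, −0.20 (SE 0.318) for Plcg2 and −0.62 (SE 0.183, edgeR adjusted p = 0.534) for Sorl1, which stood at 0.04 (SE 0.147) without it. In the model of group means the RIN slope rests on differences within groups. These were largest in APP/PS1 males (7.8, 8.2 and 8.3), while the SD in the other groups was between 0.058 and 0.1. All RIN-adjusted values within a sex or genotype, and for the interaction, therefore depend largely on these APP/PS1 males. Across the gap between the male groups the fit cannot decide between RNA quality and genotype. The part of RNA quality in the male values was not tested beyond this fit.

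Within females the estimates ran from −0.51 (SE 0.427) for Ms4a6d to 0.22 (SE 0.147) for Sorl1, with 2 above 0 and 8 below, where 50.5% of all genes lay above 0. None of the 10 separated the female groups fully, upward (4.33% of all genes) or downward (5.0%). The Ms4a6d estimate ran from −1.04 (without APP/PS1/Hras-/- female 2) to −0.08 (without APP/PS1 female 3) when 1 library was left out. That of Sorl1 was 0.10 without APP/PS1 female 2 and 0.38 (SE 0.102, edgeR adjusted p = 0.82) with RIN as a covariate. Clu averaged 890 ± 53.8 CPM in APP/PS1/Hras-/- females and 990 ± 58.8 CPM in APP/PS1 females (SD, n = 3 each), a log2 difference of −0.15 (SE 0.0936). Cd33 differed by −0.19 (SE 0.166) and Inpp5d by −0.13 (SE 0.162). Among the 10 genes 0 passed in edgeR and 0 had an unadjusted p under 0.05, against 0.0116% and 3.81% of all genes, and DESeq2 and limma-voom called 0.

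The difference between the female and the male genotype effect, the genotype by sex interaction, was largest in size for Ms4a6d, at −0.91 (SE 0.624). Leaving out 1 library moved it as far as −1.44 (without APP/PS1/Hras-/- female 2) or, smaller in size than the Cd33 value that follows, to −0.48 (leaving out APP/PS1 female 3). Cd33 had −0.58 (SE 0.236, edgeR adjusted p = 0.667) and Plcg2 −0.42 (SE 0.254). Of the 10 estimates 3 lay above 0, beside 49% of all genes. On the list of 18 microglia markers 0 interaction estimates lay above 0 (median −0.37, 0 called). Cd33 was again the only one of the 10 with an unadjusted p under 0.05, beside 7.21% of all genes. No gene of the 17307 passed this test after adjustment (0%), with DESeq2 and limma-voom also at 0. With RIN as a covariate the Cd33 interaction was −0.02 (SE 0.395) and that of Plcg2 0.25 (SE 0.406), while that of Sorl1 was 1.001 (SE 0.235, edgeR adjusted p = 0.409), beside 0.18 (SE 0.207) without RIN and −0.02 (SE 0.196) without the pair of libraries that stood apart.

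Females and males were compared next, first across genotypes. Inpp5d averaged 29.2 ± 2.98 CPM in females and 22.9 ± 4.33 CPM in males (SD, n = 6 each), a log2 difference of 0.35 (SE 0.114, edgeR adjusted p = 0.892; two-sided exact permutation p = 0.0303). Plcg2 averaged 8.75 ± 0.934 CPM in females and 7.05 ± 1.43 CPM in males, a difference of 0.32 (SE 0.135). Cd33 differed by 0.26 (SE 0.140) and Ms4a6d by 0.59 (SE 0.325). None of the 10 passed after adjustment, where 12 genes, 0.0693%, did, and DESeq2 and limma-voom called 0 of the 10. Inpp5d and Plcg2 had an unadjusted p under 0.05, as had 4.65% of all genes. Of the 10 estimates 7 lay above 0 (50.6% of all genes), and 0 of the 10 had all females above all males (0.179% of all genes) or below them (0.0924%).

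Within APP/PS1 mice the sex estimates of the 4 microglial genes were all above those across genotypes. Cd33 averaged 21.8 ± 2.30 CPM in females and 14.8 ± 2.67 CPM in males (SD, n = 3 each), a log2 difference of 0.55 (SE 0.167, edgeR adjusted p = 0.378). Plcg2 averaged 8.98 ± 0.692 CPM in females and 6.23 ± 1.29 CPM in males, a difference of 0.53 (SE 0.180). Inpp5d differed by 0.44 (SE 0.163) and Ms4a6d by 1.03 (SE 0.438). In Plcg2, Cd33 and Clu, 3 of the 10, every APP/PS1 female lay above every APP/PS1 male, and Clu averaged 990 ± 58.8 CPM in females and 858 ± 64.0 CPM in males (SD, n = 3 each, log2 difference 0.21, SE 0.0936). Among all 17307 genes 10.2% had every APP/PS1 female above every APP/PS1 male, and 9.9% had every female below every male. The exact permutation test of 3 against 3 cannot go below p = 0.1.

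Outside the microglial genes and Clu, Bin1 was the only gene of the 10 with an unadjusted p under 0.05 in APP/PS1 mice. It averaged 248 ± 20.7 CPM in females and 289 ± 38.1 CPM in males, a log2 difference of −0.22 (SE 0.1) that became −0.11 without APP/PS1 male 1. In total 6 of the 10 had an unadjusted p under 0.05 (Clu, Bin1, Inpp5d, Plcg2, Cd33 and Ms4a6d), beside 10.7% of all genes. Of the 10 estimates 7 lay above 0, beside 51.6% of all genes. None passed after adjustment, where 9 genes, 0.052%, did, and DESeq2 and limma-voom called 0 of the 10. Picalm, Abca7, Sorl1 and Cd2ap had estimates between −0.14 and 0.11.

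**Figure D3:**
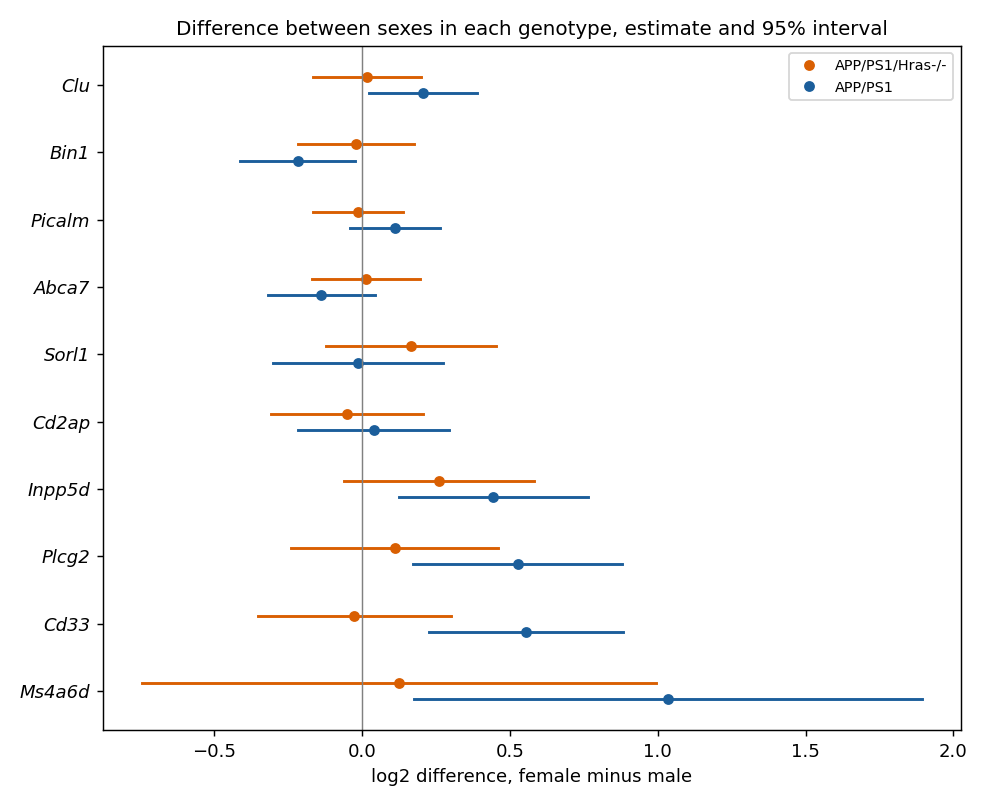
Log2 difference between females and males (x axis) for each gene (rows), in APP/PS1/Hras-/- mice and in APP/PS1 mice; points are edgeR estimates and lines 95% intervals. In APP/PS1 mice the intervals of Clu, Inpp5d, Plcg2, Cd33 and Ms4a6d lie above 0 and that of Bin1 below it, and in APP/PS1/Hras-/- mice all 10 include 0.

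In APP/PS1/Hras-/- mice the estimates of the sex difference ran from −0.05 for Cd2ap to 0.26 for Inpp5d. Cd33 averaged 19.2 ± 2.76 CPM in females and 19.5 ± 3.77 CPM in males (SD, n = 3 each), a log2 difference of −0.03 (SE 0.167). Inpp5d had 0.26 (SE 0.164), Sorl1 0.17 (SE 0.147) and Plcg2 0.11 (SE 0.179). With RIN as a covariate Sorl1 had the largest estimate, 0.48 (SE 0.120, edgeR adjusted p = 0.654), followed by Inpp5d with 0.41 (SE 0.210), Plcg2 with 0.36 (SE 0.204) and Cd33 with 0.19 (SE 0.199). In edgeR 0 of the 10 passed and 0 had an unadjusted p under 0.05, against 0.0462% and 2.64% of all genes, with DESeq2 and limma-voom at 0. Of the estimates 6 lay above 0 (50.1% of all genes), and 0 of the 10 genes separated the sexes upward (3.14% of all genes) or downward (2.83%). The interaction given above is the test of the difference between both sex effects, and no gene passed it.

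RIN and microglial markers moved with sex in APP/PS1 mice. In APP/PS1/Hras-/- mice RIN separated the sexes the other way, at 8.40 ± 0.1 in females and 8.67 ± 0.058 in males. RIN was 8.53 ± 0.058 in APP/PS1 females and 8.10 ± 0.265 in APP/PS1 males, and with it as a covariate the sex differences there were 0.21 (SE 0.256) for Cd33, 0.12 (SE 0.265) for Plcg2, 0.21 (SE 0.267) for Inpp5d and 0.04 (SE 0.134) for Bin1. Those of Clu and Ms4a6d were 0.30 (SE 0.148) and 1.32 (SE 0.784), and that of Sorl1 was −0.52 (SE 0.153, edgeR adjusted p = 0.51), beside −0.01 (SE 0.147) without RIN. The summed level of 18 microglia markers, among them P2ry12, Tmem119 and Csf1r, ran from 836 to 1323 CPM in APP/PS1/Hras-/- males and from 1066 to 1444 CPM in APP/PS1/Hras-/- females. It ran from 1414 to 1524 CPM in APP/PS1 females and from 857 to 1160 CPM in APP/PS1 males, without overlap. All 18 had estimates above 0 for the sex difference in APP/PS1 mice (median 0.59, 0 called), beside 51.6% of all genes. So had all 18 of a list of plaque-associated microglia (median 0.92, 0 called). In APP/PS1/Hras-/- mice 16 of 18 microglia markers lay above 0 (median 0.19, 0 called), beside 50.1% of all genes. Of the plaque-associated list 17 of 18 did so there (median 0.43, 0 called). The part of microglial content in the sex differences of Cd33, Plcg2, Inpp5d and Ms4a6d was not tested.

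Astrocyte markers also stood higher in APP/PS1 females. Their summed level ran from 7024 to 7664 CPM in APP/PS1 females and from 6016 to 6633 CPM in APP/PS1 males, with all 12 estimates above 0 (median 0.23, 0 called). The correlation of Clu with this sum, given further on, missed the threshold (r = 0.581). The leptomeningeal sum ran from 150 to 246 CPM in APP/PS1 females and from 89.3 to 134 CPM in APP/PS1 males, and the neuronal sum from 10780 to 12320 CPM in females and from 12790 to 13470 CPM in males. Without the pair of libraries that stood apart, the sex difference of Clu in APP/PS1 mice was 0.16 (SE 0.105), and those of Cd33, Plcg2 and Inpp5d were 0.61 (SE 0.188), 0.57 (SE 0.203) and 0.50 (SE 0.180).

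How the 10 genes varied among themselves was described by correlation of log2 CPM over the 12 libraries. Among the microglial genes Inpp5d, Plcg2 and Cd33 moved together. Plcg2 and Cd33 had the highest coefficient, Pearson's r = 0.937 and Spearman's rho = 0.846 (permutation p = 2e-05 and 0.0011, adjusted over 45 pairs 0.0009 and 0.036). It was 0.841 without APP/PS1 males 1 and 3, the libraries farthest from the median of Plcg2, and 0.893 once the mean of each group was subtracted. Genes of 1 library share its tissue content and depth, so these values describe the libraries. Here and for the marker sums below, the resamples shuffled all 12 libraries without regard to the 4 groups. Their p therefore also reflects shared differences between group means, and the group-centred values carry no test.

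Of the 45 pairs, 5 had an adjusted permutation p of Pearson's r under 0.05, all among Picalm, Inpp5d, Plcg2 and Cd33, whose remaining pair, Picalm and Inpp5d, had r = 0.515 (adjusted permutation p = 0.282). By Spearman's rho only Plcg2 with Cd33 and Plcg2 with Inpp5d passed (adjusted permutation p = 0.036 for each). The adjusted permutation p of rho was 0.066 for Inpp5d with Cd33, 0.169 for Picalm with Plcg2 and 0.225 for Picalm with Cd33. Inpp5d correlated with Cd33 at r = 0.810 (rho = 0.776, permutation p = 0.0013, adjusted 0.0191) and with Plcg2 at r = 0.807 (rho = 0.825, permutation p = 0.0017, adjusted 0.0191). Picalm correlated with Plcg2 at r = 0.847 (rho = 0.692, permutation p = 0.0012, adjusted 0.0191) and with Cd33 at r = 0.794 (rho = 0.58, permutation p = 0.0022, adjusted 0.0198). Without the 2 libraries farthest from the median of the first gene these became 0.628, 0.600, 0.577 and 0.498 (permutation p = 0.048, 0.066, 0.083 and 0.14, 10 libraries). With group means subtracted over all 12 libraries they were 0.815, 0.726, 0.830 and 0.698. For Picalm they were APP/PS1 male 1 and APP/PS1/Hras-/- male 3, and for Inpp5d APP/PS1 males 1 and 3.

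Ms4a6d did not join this group by the test. Its r was 0.623 with Cd33, 0.579 with Inpp5d and 0.538 with Plcg2 (adjusted permutation p = 0.15, 0.2 and 0.274), at 8 to 58 counts per library. Bin1 had negative values against Picalm (r = −0.755, rho = −0.490) and Plcg2 (r = −0.670, rho = −0.566). Neither pair passed (adjusted permutation p of r 0.0743 and 0.113, of rho 0.291 and 0.225). Without APP/PS1 female 2 and APP/PS1 male 1 the r values were −0.631 and −0.415. With Abca7 Bin1 had a positive r of 0.638 (adjusted permutation p = 0.113). Clu, Abca7, Sorl1 and Cd2ap had no pair past the threshold.

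**Figure D4:**
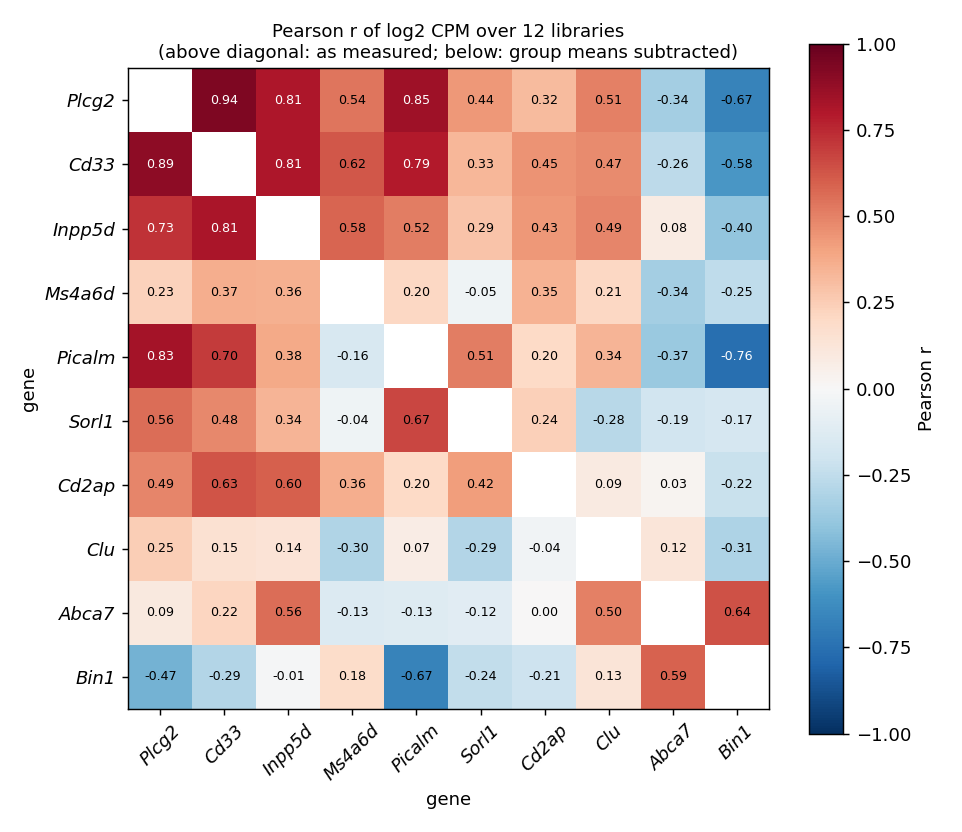
Pearson's r of log2 CPM between the 10 genes (rows and columns) over 12 libraries, above the diagonal as measured and below it with each group's mean subtracted; colour runs from −1 (blue) to 1 (red). Plcg2, Cd33 and Inpp5d form a block of high values that remains below the diagonal (0.73 to 0.89). Above the diagonal Bin1 is negative against every gene except Abca7 (0.64). Below it Bin1 is positive against Clu (0.13), Abca7 (0.59) and Ms4a6d (0.18), and −0.01 against Inpp5d.

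The same libraries were set against the summed levels of the 13 marker lists, which hold none of the 10 genes. Of 130 pairs, 10 had an adjusted permutation p under 0.05. Inpp5d followed the microglia sum with r = 0.914 (rho = 0.930, permutation p = 1e-05, the smallest that 100000 resamples can give, adjusted 0.0013), Plcg2 with r = 0.884 (rho = 0.867, permutation p = 8e-05, adjusted 0.00477) and Cd33 with r = 0.859 (rho = 0.832, permutation p = 0.00028, adjusted 0.0091). Without the 2 libraries farthest from the median sum these were 0.858, 0.862 and 0.815, and with group means subtracted 0.832, 0.870 and 0.857. The association was therefore present within groups as well as between them.

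The same genes followed the sum of plaque-associated microglia, at r = 0.889 for Inpp5d, 0.798 for Cd33 and 0.778 for Plcg2 (adjusted permutation p = 0.00477, 0.0246 and 0.0312). Ms4a6d had r = 0.483 with the microglia sum and 0.601 with the plaque-associated sum, neither past the threshold. Cd33 also followed the astrocyte sum (r = 0.841, adjusted permutation p = 0.0117) and the mural cell sum (r = 0.828, adjusted 0.0178). Clu correlated with the leptomeningeal sum at r = 0.807 (adjusted permutation p = 0.0227) and with the neuronal sum at r = −0.779 (adjusted permutation p = 0.0227). Without APP/PS1 male 3 and APP/PS1 female 2 the leptomeningeal r was 0.604 (permutation p = 0.061). With the astrocyte sum Clu had r = 0.581 (adjusted permutation p = 0.195), and 0.274 with group means subtracted. With the microglia and plaque-associated sums it had r = 0.741 and 0.731 (adjusted permutation p = 0.0724 for each), and 0.543 and 0.520 with group means subtracted. The remaining lists, for oligodendrocytes and their precursors, endothelium, choroid plexus, striatum, peripheral immune cells and blood, gave no pair past the threshold.

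**Figure D5:**
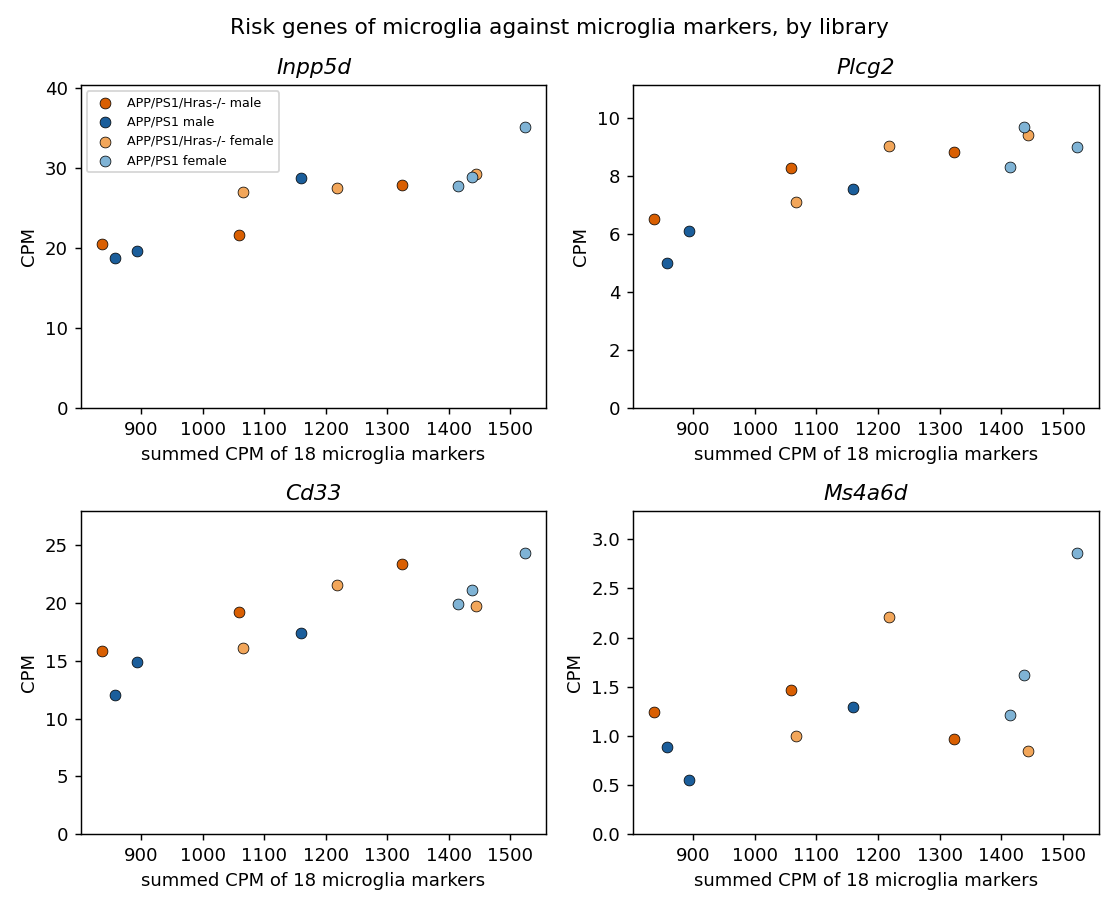
CPM of Inpp5d, Plcg2, Cd33 and Ms4a6d (y axes, from 0) against the summed CPM of 18 microglia markers (x axes) in the 12 libraries, coloured by group. Inpp5d, Plcg2 and Cd33 climb with the marker sum (r on the log2 scale 0.914, 0.884 and 0.859), and Ms4a6d is scattered (0.483).

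The genes most like each of the 10 were taken as those with the highest r after subtraction of group means, among the 15359 tested genes whose mean reached 1 CPM over 12 libraries. For Inpp5d these were Plekhh2 (0.948), Tlr7 (0.932), an endosomal receptor of microglia, and Lcp1 (0.924), an actin bundler of leukocytes. Plcg2 was most like Tgfbr1 (0.956), Nin (0.952) and Plb1 (0.950), and Cd33 most like Mbnl1 (0.982), Pde3b (0.967) and Tns3 (0.964). Ms4a6d was most like E130114P18Rik (0.900), Myh11 (0.897) and Gm14150 (0.896).

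For Bin1 the leading genes were Pcbp4 (0.990) and Dus3l (0.983), and for Picalm Neto2 (0.964), Fnip1 (0.961) and Nf1 (0.957), a GTPase activator of Ras. Sorl1 was most like Kcnt2 (0.965), Timm8a1 (0.959) and Pcdh7 (0.958), and Cd2ap most like Scarb2 (0.965), Gm13910 (0.963) and Gprc5b (0.955). Abca7 was most like Gm40518 (0.951), Phyhd1 (0.946) and Mmp15 (0.934), and Clu most like BX649560.1 (0.935), Mapkapk2 (0.923) and Acads (0.914). Without the subtraction, r with the same member was lower for some of these genes. It was 0.403 for Timm8a1, 0.416 for Gm14150, 0.449 for Plb1, 0.595 for Plekhh2 and 0.599 for BX649560.1. For others, such as Pcbp4 (0.987), Mbnl1 (0.968) and Tlr7 (0.929), it stayed close to the value after subtraction. Each gene named is the top of a ranking over many genes in 12 libraries and carries no test.

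Related genes were read from lists of pathway partners and relatives. Of 48 other Alzheimer risk loci outside the 10 that matched the annotation, 44 were tested and 0 were called in any of the 7 comparisons. Across sexes the smallest p among them belonged to Tspan14, a tetraspanin that assists the protease Adam10, at 49.8 ± 2.61 CPM in APP/PS1/Hras-/- and 45.3 ± 2.20 CPM in APP/PS1 mice (SD, n = 6 each, log2 difference 0.14, SE 0.0540, edgeR adjusted p = 1). Adamts4, a matrix protease, followed at 29.0 ± 6.37 CPM in APP/PS1/Hras-/- and 22.5 ± 3.32 CPM in APP/PS1 mice (0.36, SE 0.150). The list's median difference across sexes was 0.0095, with 24 of 44 above 0. Spi1, chosen here after its values were seen because it encodes PU.1, differed by 0.04 (SE 0.167) with genotype across sexes and by 0.67 (SE 0.228, adjusted p = 0.378) between the sexes of APP/PS1 mice.

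Of 29 close relatives of the 10 genes, such as other Siglecs, MS4A proteins, Sorcs receptors and Plcg1, 23 were tested and 0 were called in any comparison. Siglece had the smallest p across sexes, at 0.493 ± 0.138 CPM in APP/PS1/Hras-/- and 0.790 ± 0.287 CPM in APP/PS1 mice (log2 difference −0.64, SE 0.284), and Ms4a7 followed with −0.48 (SE 0.356). Ms4a6b and Ms4a6c, the closest relatives of Ms4a6d, had −0.04 (SE 0.245) and −0.38 (SE 0.296), named after their values were seen. Trem2 and Apoe differed by −0.19 (SE 0.188) and −0.13 (SE 0.0819).

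None of the pathway lists held a called gene in any comparison. The lists covered the clathrin coat and its partners (22 tested), the retromer and sorting partners of Sorl1 (13), immune receptor signalling around Plcg2 and Inpp5d (24), and lipoprotein handling (15). Their median log2 differences across sexes were 0.0066, 0.0070, −0.02 and −0.0011. Among the genes with the smallest p across sexes were Clta (−0.09, SE 0.0668) and Cltb (−0.07, SE 0.0716) of the clathrin coat, Snx1 (0.09, SE 0.0588) and Ap1b1 (−0.06, SE 0.0659) of the sorting list, Hcst (−0.79, SE 0.360) and Lat2 (−0.27, SE 0.185) of the immune list, and Apoe of the lipoprotein list.

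Between the sexes of APP/PS1 mice the immune signalling list had a median log2 difference of 0.48, beside 0.0081 over all genes tested, with 18 of 24 above 0, 13 at an unadjusted p under 0.05 and 0 called, against 51.6%, 10.7% and 0.052% of all genes. The medians of the clathrin, sorting and lipoprotein lists there were −0.05, −0.02 and 0.08, and no difference between lists was tested. Between the sexes of APP/PS1/Hras-/- mice the immune signalling list had a median of 0.18, with 21 of 24 above 0, against 50.1% of all genes. Of these 24 genes, 0 had an unadjusted p under 0.05 in that edgeR comparison and 0 were called. Cell type markers gave 0 calls on any list in any comparison, with medians in the genotype comparison across sexes of −0.03 for microglia, −0.13 for plaque-associated microglia, −0.05 for astrocytes, 0.11 for oligodendrocytes, −0.03 for their precursors, 0.0039 for neurons, 0.07 for endothelium and 0.04 for mural cells. For choroid plexus, leptomeninges, striatum, peripheral immune cells (5 of 12 tested) and blood (4 of 5 tested) they were −0.35, −0.11, −0.31, −0.03 and −0.24. Some of these medians pool opposite shifts. Microglia markers had a genotype median of 0.16 in males (15 of 18 above 0) and −0.25 in females (0 of 18). Astrocyte markers had 0.12 in males (8 of 12 above 0) and −0.18 in females (0 of 12). Choroid plexus markers had 1.48 in males (10 of 10 above 0) and −2.08 in females (0 of 10), where APP/PS1 female 2 had the sum of 3150 CPM. Leptomeningeal medians were 0.12 in males and −0.52 in females, and blood medians 0.51 and −0.91. Oligodendrocyte medians lay above 0 in both sexes (0.06 in males, 0.16 in females). The part of cell content in the genotype estimates within each sex was not tested.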

How the data were processed

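Per the labels' protocols, library preparation used a TruSeq Stranded mRNA kit. Reads were handled with HISAT2 2.1.0, featureCounts, FastQC 0.11.7 and Trimmomatic 0.33 per the submitters' processing notes, which list the builds mm10 and mm9 without their roles. Neither the annotation release nor the strand setting of the counting is stated there, so reads of overlapping opposite genes cannot be told apart. The deposited table holds raw counts per gene and library, without normalization.

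Identifiers were matched to GENCODE M21 (GRCm38), and 37 of 54532 had no match (0.0099% of counts). Levels are CPM with TMM factors. A per-kilobase level divides CPM by the merged exon length. The filterByExpr rule over 4 groups kept 17307 genes. Genes were tested by edgeR 4.0.16 with quasi-likelihood F tests (R 4.3.3, robust dispersions, Benjamini-Hochberg adjusted p of 0.05 over all genes tested). Effects across groups came from a model of sex and genotype, and effects within a sex or genotype and the interaction from a model of 4 group means. All fits used the 12 libraries, and intervals used the normal quantile 1.96. Exact permutation tests of CPM were two-sided and have a smallest p of 0.0022 for 6 against 6. Correlations used 100000 resamples in Python 3.11.15 (NumPy 2.4.6, SciPy 1.17.1) and log2 CPM with a prior count of 2. The scripts were tested on simulated data, with 50 genes changed at each size. At a log2 difference of 0.3, 12% of them were recovered across sexes, 0% in males, 2% in females and 0% for the interaction. At 0.58 these shares were 72%, 32%, 32% and 8%. A lack of calls therefore does not show a lack of differences of these sizes.

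The 10 genes, the 13 marker lists and the other gene lists were chosen with earlier results of these data known. Besides the 10, the text names Hras, the 3 genes most like each, and, of each list, the 2 genes with the smallest p across sexes, except 2 genes that are not reported here, and any other gene is marked as picked with its values known. The marker lists are given here by their sums, counts and medians. Of the listed symbols 1 did not match the annotation. Replicate numbers follow the order of the samples and pair no mice. Labels say separate mice, and no batch is given. Alternatives were other scalings, DESeq2 1.42.0, limma-voom 3.58.1, other filters and dispersions, RIN as a covariate, other model terms, fits of 1 sex alone, and libraries left out.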

Additional observations from a re-analysis of the deposited data

How the results depend on the processing

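None of the 10 genes was called in any of the 7 comparisons under any alternative run. Of 1510 values of the 10 genes under alternatives, 1465 moved by no more than 1 SE of the original estimate and 45 by more, 36 of them with RIN as a covariate, where the male genotype estimates of Cd33, Plcg2, Picalm, Inpp5d, Sorl1 and Bin1 changed sign, as did, among others, those of Picalm, Plcg2 and Cd33 across sexes. The number of genes called over the whole table varied more. DESeq2 called 7 genes for genotype across sexes in place of 3, 4 in place of 2 in males, 5 in place of 2 in females, 27 in place of 12 for sex across genotypes and 63 in place of 9 for sex in APP/PS1 mice. Without a filter on low counts edgeR called 5 genes across sexes and 4 in females. Leaving out 1 library at a time gave 9 to 20 genes for sex across genotypes, the 20 without APP/PS1/Hras-/- male 2. The cause was not tested. No paired analysis was possible because the labels give no replicate numbers. Groups of 3 mice limit the precision within a sex, where the SE of a male log2 difference ran from 0.0775 for Picalm to 0.455 for Ms4a6d.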
